A study of Mus musculus with 4 samples.

Results

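Arterial endothelial cells were picked out of 4 single-cell RNA libraries of mouse lung by the transcripts that each cell carried, and they numbered 483 of the 34683 cell barcodes. A cell was kept when it had at least 500 genes and at most 10% mitochondrial UMIs (unique molecular identifiers, 1 for each captured transcript). It had to carry at least 2 UMIs of the endothelial genes Pecam1, Cdh5, Cldn5, Egfl7, Ramp2 and Tie1 together and none of Ptprc, Epcam, Col1a1 or Col1a2. It counted as arterial with at least 3 UMIs of Gja5, Bmx, Fbln2, Sulf1, Olfm2 and Sfrp1 together, called the rule genes here. Cells with more than 1 UMI of the venous genes Slc6a2, Tmem45a, Pgm5, Car8 and Amigo2 were left out, as were those with any UMI of Mmrn1, Prox1, Reln, Mki67 or Top2a. The 6 rule genes and the 4 sets of excluded genes therefore chose the cells, and their levels are given below only as a description.

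The study took lung endothelium from wild-type mice after a sham operation (sham) and, on day 7 after PNX, from wild-type mice (WT PNX) and from 2 kinds of conditional knockout mice (M3cKO PNX and Foxo1cKO PNX, also called the M3cKO and the Foxo1cKO library). In this field PNX stands for pneumonectomy, the removal of part of the lung, after which the remaining lobes grow. Lungs were digested in type 1 collagenase, beads then pulled out CD45-positive cells, and a second set of beads selected for CD31. The labels read here do not say what M3 stands for, which Cre was used, how old the mice were or how many gave cells to a library. With 1 library for each group no test between groups was possible, and every interval below is a 95% interval that covers counting error only.

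Arteries carry blood under pulsatile pressure, and their lining differs from that of capillaries and veins. Notch signalling through the ligand Dll4, the transcription factor Sox17 and the gap junction protein connexin 40, the product of Gja5, mark this lining. Cxcl12 is a chemokine that arterial endothelium makes in many organs, and the elastic layers of the arterial wall are built from elastin, fibulins and latent TGF-beta binding proteins.

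The 483 arterial cells were 122 in sham, 149 in WT PNX, 25 in the M3cKO library and 187 in the Foxo1cKO library. Their UMIs summed to 336212, 578340, 84716 and 663361, and the median cell held between 2396 UMIs in sham and 2940 in WT PNX. The M3cKO PNX profile therefore rests on few cells, and the deepest of them, with 12186 UMIs, held 14.4% of all arterial UMIs of that library, where the deepest cell of the other libraries held between 2.37% and 4.17%. Of 86 genes looked at one by one with at least 20 UMIs in M3cKO PNX, 12 had over 50% of their UMIs in 1 cell, Eln and Vcam1 among them. Levels in that library are therefore given with and without the highest cell where 1 cell matters. Between 68 and 111 barcodes were shared by any pair of libraries, and 0 of them were arterial cells. Arterial cells in which Xist but nothing Y-linked was read were 0 in sham, 43 in WT PNX, 0 in the M3cKO library and 54 in the Foxo1cKO library, while cells with Y-linked UMIs and no Xist were 32, 32, 12 and 36. Cells of both sexes were thus seen in WT PNX and Foxo1cKO PNX alone. When WT PNX is compared with sham or with M3cKO PNX, sex and group therefore cannot be fully told apart. With all cells that carried Xist left out, 56 of 63 log2 ratios of named genes stayed 2-fold apart and 0 reversed. Among the 7 that fell under 2-fold were Sfrp1 in WT PNX against sham, at -0.795, and Hspa8 in M3cKO PNX against WT PNX, at 0.967.

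Levels below are CPM, the UMIs of a gene summed over the arterial cells of a library and divided by all their UMIs, times 1000000. Because the libraries read 1 end of each transcript, these are levels of a gene between libraries and cell types, and they are not set against each other between genes. Fewer arterial cells in a lung and a lower recovery of them from the digest cannot be told apart.

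The arterial share of the endothelium was lowest in M3cKO PNX. Arterial cells were 2.62% of 4665 endothelial cells in sham (2.18 to 3.11), 3.83% of 3887 in WT PNX (3.25 to 4.49), 1.00% of 2491 in the M3cKO library (0.651 to 1.48) and 4.91% of 3811 in the Foxo1cKO library (4.24 to 5.64). Because the rule asks for a number of UMIs, deeper cells pass it more often, and the median endothelial cell held 1841 UMIs in sham against 2640 in WT PNX. With every cell thinned to 2000 UMIs and shallower cells left out (2654, 1147, 1197 and 1275 endothelial cells), the shares were 3.52% (2.76 to 4.41), 4.21% (3.52 to 4.99), 0.967% (0.516 to 1.65) and 4.84% (4.06 to 5.72). The intervals of sham and WT PNX then overlapped, those of WT PNX and Foxo1cKO PNX overlapped, and that of M3cKO PNX lay under all the others.

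**Figure D1:**
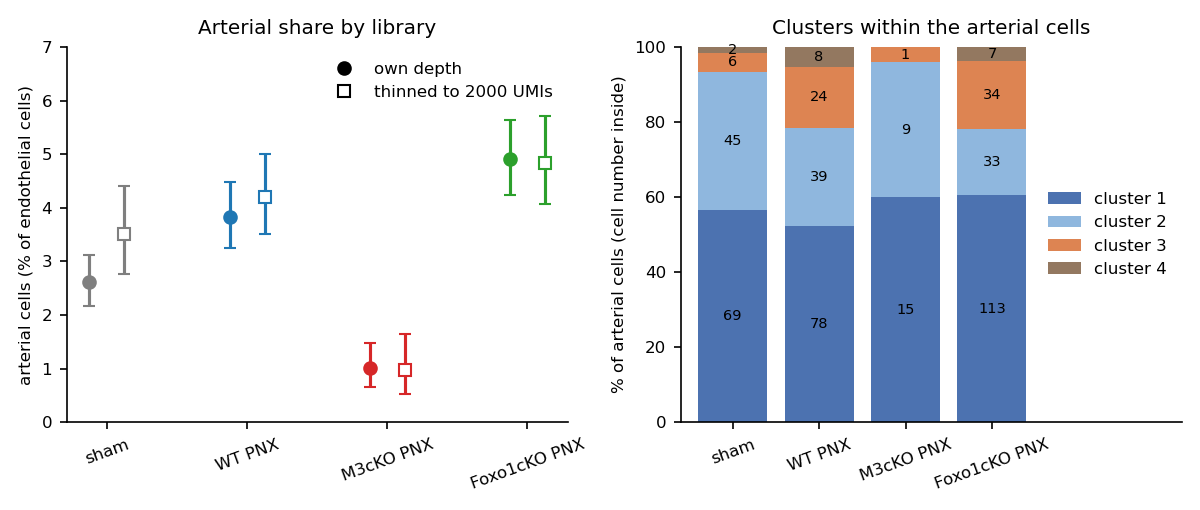
Left, arterial cells as a percentage of endothelial cells in each library, at each cell's own depth (filled circles) and after thinning to 2000 UMIs (open squares), with exact 95% binomial intervals. Right, the 4 clusters of arterial cells as a percentage of the arterial cells of each library, with cell numbers inside. M3cKO PNX sits near 1% at either depth, and clusters 3 and 4 hold 32 of 149 cells in WT PNX and 8 of 122 in sham.

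Within the rule, Gja5 and Fbln2 carried most of the evidence. Gja5, which encodes connexin 40, was seen in 72.9% of the arterial cells, and the extracellular matrix gene Fbln2, fibulin 2, in 66.5%. The sulfatase gene Sulf1, which trims heparan sulfate, was seen in 44.5%, the tyrosine kinase gene Bmx in 44.1%, the olfactomedin gene Olfm2 in 29.0% and the Wnt inhibitor gene Sfrp1 in 7.45%. The median cell had 6 rule-gene UMIs and the highest 129, and 90 cells passed on a single rule gene while 5 carried all 6. Just inside the threshold lay 113 cells with exactly 3 rule-gene UMIs, and just outside lay 255 cells with 2 that met all other conditions.

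Gja5 and Fbln2 varied little between libraries in the cells that they helped to choose. Gja5 (GRCm38 chromosome 3, 96904693 to 97077416, plus strand) stood at 648 CPM in sham (565 to 740), 787 in WT PNX (716 to 862), 661 in the M3cKO library (499 to 858) and 841 in the Foxo1cKO library (773 to 914). Fbln2 (chromosome 6, 91212455 to 91272540, plus strand) stood at 782, 873, 862 and 883 CPM. The intervals of M3cKO PNX overlapped those of all 3 other libraries for both genes. In cells chosen by the other 5 rule genes, Gja5 stood at 520 CPM in sham (438 to 613) and 691 in WT PNX (616 to 773). It stood there at 526 in the M3cKO library (350 to 761) and 707 in the Foxo1cKO library (636 to 785). Sham then lay under WT PNX and Foxo1cKO PNX with no overlap of intervals. Fbln2, read in the same way, stood at 607 (519 to 706), 792 (704 to 889), 808 (612 to 1047) and 742 CPM (666 to 825).

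Olfm2 (chromosome 9, 20667690 to 20746349, minus strand) was the rule gene that differed most between the libraries, at 761 CPM in sham (671 to 861), 163 in WT PNX (131 to 199), 94.4 in the M3cKO library (40.8 to 186) and 79.9 in the Foxo1cKO library (59.8 to 105). It was seen in 57.4% of arterial cells of sham (48.1 to 66.3) and in 24.2%, 20% and 15.5% of those after PNX. In general capillary cells, gated below, Olfm2 was seen in 0.385%, 0.220%, 0.189% and 0.0879% of cells at median depths of 1651, 2131, 1811 and 2022 UMIs. Since Olfm2 helped to choose the cells, it was also read in cells chosen by the other 5 rule genes, where it stood at 655 CPM in sham (565 to 756) and at 154 (123 to 190), 60.6 (19.7 to 141) and 75.8 (56.2 to 99.9) in the PNX libraries. The sham level was above the 3 others with no overlap of intervals whether or not Olfm2 took part in the choice.

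The other rule genes were less even. Sulf1 (chromosome 1, 12692277 to 12861192, plus strand) stood at 437 CPM in sham (369 to 514) and at 252 (213 to 297), 271 (172 to 407) and 176 (146 to 211) after PNX. Bmx (chromosome X, 164192842 to 164258193, minus strand) stood at 259, 178, 153 and 247 CPM. Sfrp1 (chromosome 8, 23411502 to 23449632, plus strand) stood at 161, 67.4, 248 and 31.7 CPM, but 1 cell held 61.9% of its UMIs in M3cKO PNX and 38% in WT PNX.

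Cxcl12 (chromosome 6, 117168535 to 117181367, plus strand), a marker outside the rule, stood at 3926 CPM in sham (3717 to 4144), 5708 in WT PNX (5515 to 5906), 2845 in the M3cKO library (2497 to 3228) and 7904 in the Foxo1cKO library (7691 to 8121). No 2 of these intervals overlapped, and the order was Foxo1cKO PNX, WT PNX, sham and M3cKO PNX. General capillary cells had 1416, 1400, 992 and 1715 CPM, with the same 2 libraries at the top and the bottom and a narrower range.

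**Figure D2:**
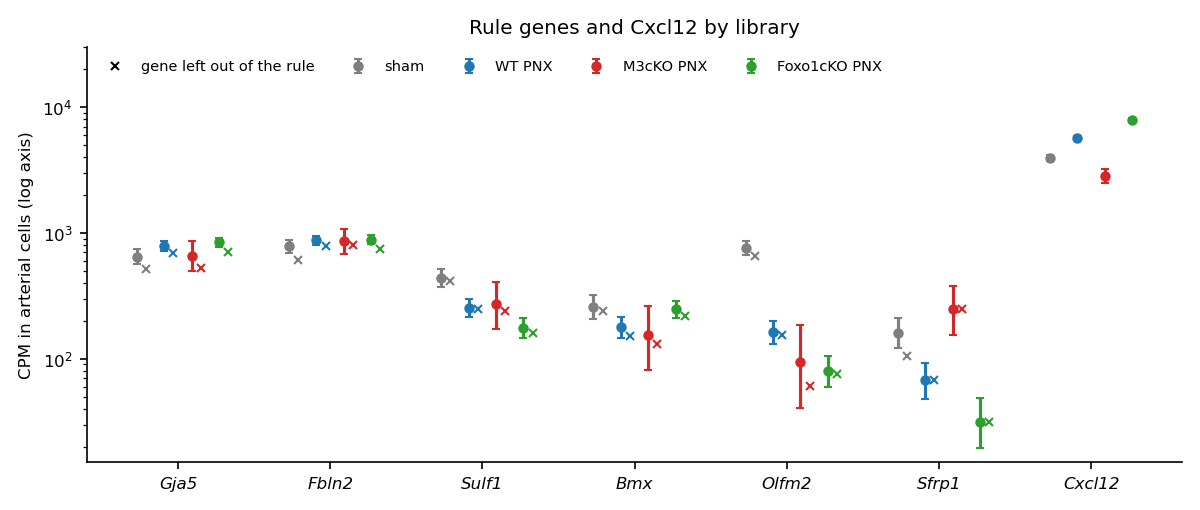
CPM of the 6 rule genes and of Cxcl12 in the arterial cells of each library (log axis), with exact 95% Poisson intervals. Crosses give a rule gene in cells chosen by the other 5. Olfm2 is at 761 CPM in sham and at or under 163 in the PNX libraries, and Cxcl12 is highest in Foxo1cKO PNX at 7904.

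Genes that the rule did not use were read beside the number of rule-gene UMIs. Endothelial cells that met every other condition were sorted by their number of rule-gene UMIs, over the 4 libraries together, into 10052 cells with 0, 943 with 1, 255 with 2, 113 with 3, 118 with 4 or 5 and 252 with 6 or more. Genes of the vessel wall climbed over these steps. Mgp, matrix Gla protein, which keeps vessel walls from calcifying, stood at 34.8, 57.8, 257, 478, 1086 and 3477 CPM. Fbln5, fibulin 5, which tethers elastic fibres to cells, went from 17.2 to 1680 CPM over the same steps, and Ltbp4, a latent TGF-beta binding protein of elastic fibres, from 48.7 to 1442. Venous cells, gated below, held Fbln5 at 1211 CPM, Mgp at 1242, Ltbp4 at 374 and Cxcl12 at 170 in WT PNX. The climb of Fbln5 and Mgp thus does not by itself tell arterial from venous cells. Cxcl12 reached 3973 CPM at 2 UMIs and 6058 at 3, and lay between 5988 and 6341 beyond that in the 4 libraries together. Single libraries differed: over the last 3 steps Cxcl12 stood at 5178, 3013 and 1767 CPM in M3cKO PNX, on 6, 10 and 9 cells, and at 6499, 8781 and 8022 in Foxo1cKO PNX.

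Capillary genes went the other way. Kit, the stem cell factor receptor of general capillary cells, was at 533 CPM with 0 rule-gene UMIs, 276 with 3 and 68.0 with 6 or more. Car4, the carbonic anhydrase of aerocytes, the large flat capillary cells of gas exchange, went from 1061 to 555 and 24.7 CPM. The Notch ligand gene Dll4 was at 234, 475 and 418 CPM, and Sox17 at 560, 549 and 411, so that Sox17 showed no climb. The cells with exactly 3 rule-gene UMIs thus held a lower level of wall genes and a higher level of capillary genes than the cells with 6 or more.

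**Figure D3:**
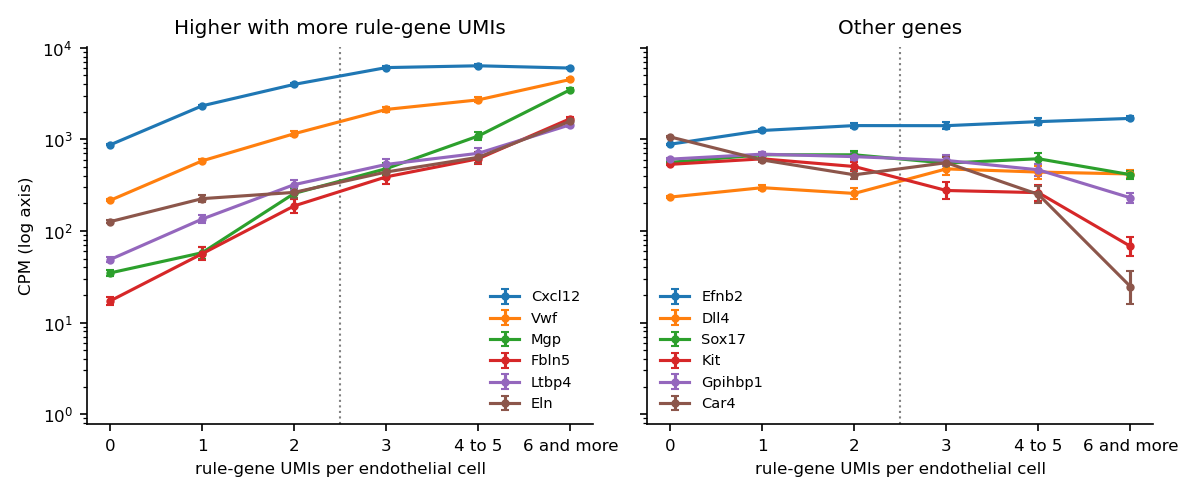
CPM (log axis) over endothelial cells of the 4 libraries together, sorted by rule-gene UMIs per cell, with exact 95% Poisson intervals; the dotted line marks the threshold of 3. Mgp climbs from 34.8 to 3477 CPM, while Car4 ends at 24.7.

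Leiden clustering on genes outside the rule split the arterial cells into 4 clusters. Cluster 1 held 275 cells and was led by Cytl1, Mgp, Igfbp5, Fbln5 and Ctsh. It had Mgp at 4429 CPM, Fbln5 at 2176, Eln, which encodes elastin, at 1930 and Gja5 at 1124. Cluster 2 held 126 cells and was led by Esm1, Glp1r, Lpl and H2-Eb1, with Sema3c, Kit and Gpihbp1 close behind. These cells had the fatty acid transport gene Gpihbp1 at 808 CPM and Mgp at 422, and still had Gja5 at 861 CPM, Cxcl12 at 6856 and Dll4 at 725. Markers of general capillary cells thus led a cluster that also carried the arterial genes, and it is called here by its number.

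Clusters 3 and 4 went against the label. Cluster 3 held 65 cells and was led by Fabp4 at 8078 CPM, Ackr1 at 513, Col15a1 at 2186, Igfbp3 and Lrg1, and it had the venous genes Selp at 1987 CPM and Nr2f2 at 316. Gja5 was at 96.7 CPM there, and Fbln2, at 1160 CPM, was the gene through which these cells met the rule. Cluster 4 held 17 cells with Car4 at 1838 CPM, Tbx2 at 362 and Fibin at 188, which are aerocyte genes, and with Gja5 at 202. Its median cell held 7433 UMIs, and 7 of its 17 cells were among the barcodes with the highest doublet scores. Together these clusters made up 82 of the 483 cells, or 17.0%. They were 8 of 122 cells in sham, 32 of 149 in WT PNX, 1 of 25 in the M3cKO library and 41 of 187 in the Foxo1cKO library. Since that share differs between the libraries, a ratio below is also given without clusters 3 and 4 where leaving them out moves it by over 1.5 times or takes it under the fold in question, a choice made after seeing the data.

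Transcripts of other cell types were also looked for. A list of 12 smooth muscle genes summed to 360 CPM in sham, 301 in WT PNX, 472 in the M3cKO library and 265 in the Foxo1cKO library. It summed to 287, 383, 193 and 358 in the kept cells that failed the endothelial rule. That group is not free of endothelial RNA, as a list of 11 general capillary genes summed to 4483 CPM there in sham. Of the 12 smooth muscle genes, 6, 6, 8 and 4 were at 0 UMIs in the arterial cells, with Cnn1 and Des at 0 in every library. Acta2, smooth muscle actin, was among the leading genes of cluster 1 and stood at 83.3, 62.2, 342 and 75.4 CPM, but 1 cell held 82.8% of its UMIs in M3cKO PNX. The part of smooth muscle RNA in the results on wall genes was not tested. A list of 10 pericyte genes summed to between 11.8 and 35.7 CPM and a list of 10 fibroblast genes to between 11.8 and 95.1. Alveolar type 1 genes summed to 428, 621, 236 and 624 CPM, beside 2048, 909, 259 and 753 in the cells that failed the endothelial rule. Alveolar type 2 genes summed to 175, 225, 23.6 and 115 CPM in the arterial cells, and platelet genes to 44.6, 70.9, 0 and 167. Lyve1, best known from lymphatic vessels, was at 6401 CPM in sham, 3648 in WT PNX, 7059 in the M3cKO library and 1925 in the Foxo1cKO library, while Prox1, Mmrn1 and Reln were at 0 by the rule. General capillary cells had Lyve1 at 1886, 772, 3651 and 491 CPM, in the same order of libraries.

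Beside other endothelial cells of the same libraries, the arterial cells were described by the genes with the widest gap. The comparison cells passed the same endothelial rule and were 5895 general capillary cells (at least 3 UMIs of Gpihbp1, Aplnr, Kit, Lpl and Glp1r), 1460 capillary cells rich in Ntrk2 and Gja4, and 1084 venous cells. The rule chose the cells on this contrast, so the following is a description. Of 30 genes in a list of arterial genes outside the rule, 28 had at least 20 UMIs, and 21 of them were higher in arterial than in general capillary cells in all 4 libraries, where 13.3% of 8130 genes were. Beside the Ntrk2 Gja4 capillary cells it was 21 of 28, with 13.5% of all genes, and beside venous cells 25 of 28, with 13.6%. The exceptions beside venous cells were Vegfc, Mgp and Eln.

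Fbln5, Mgp, Adgrg6, Ltbp4, Cdh13, Bgn, Cytl1 and Cmklr1 were, in that order, the genes outside the rule with the widest gap to general capillary cells in the library where the gap was smallest. Fbln5 stood at 619, 1338, 1428 and 1321 CPM in arterial cells and at 12.1, 28.1, 24.98 and 28.6 in general capillary cells, but venous cells were close to it in 3 libraries, at 464, 1211, 475 and 1065 CPM. Bgn, which encodes the matrix proteoglycan biglycan, stood at 654, 387, 862 and 252 CPM in arterial cells and at 1032, 563, 791 and 496 in venous cells, which were thus higher in 3 of the 4 libraries. Cdh13, which encodes T-cadherin, stood at 592, 237, 685 and 273 CPM against 4.41, 4.28, 7.14 and 13.2. Vwf, von Willebrand factor, stood at 4830, 3441, 5158 and 2986 CPM in arterial cells and at 383, 303, 564 and 243 in general capillary cells, but venous cells had more, at 8422, 7280, 6836 and 7044. Cmklr1, a chemerin receptor gene, stood at 235, 190.2, 201 and 143 CPM in arterial cells, at most 9.81 in general capillary cells and at most 66.5 in venous cells. Eln was also a venous gene here: venous cells had 502, 2044, 1194 and 1957 CPM.

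The Notch pathway genes Dll4 and Hey1 separated the arterial cells from veins more than from capillaries, while the ligand gene Jag1 did not. Dll4 stood at 577 CPM in sham, 434 in WT PNX, 590.2 in the M3cKO library and 342 in the Foxo1cKO library, beside 301, 296, 250.2 and 276 in general capillary cells and 18.2, 13.3, 12.4 and 28.3 in venous cells. Hey1, a Notch target, stood at 402, 353, 390 and 332 CPM in arterial and 356, 347, 317 and 342 in general capillary cells, beside 52.3, 26.6, 40.3 and 23.6 in venous cells. Jag1 stood at 101, 112, 106 and 125 CPM in arterial cells. It was at 56.1, 60.5, 76.7 and 63.0 in general capillary and 69.3, 94.1, 80.5 and 86.2 in venous cells. Sox17 was lower in arterial cells, at 333, 368, 484 and 657 CPM, than in general capillary cells, at 574, 878, 722 and 1023. Gja4, the connexin 37 gene, stood at 294, 536, 366 and 644 CPM in arterial cells and at 745, 929, 880 and 888 in the Ntrk2 Gja4 capillary cells that it helped to choose. Genes that were lower in arterial cells were picked after their values were seen. Sema3c, which took no part in choosing cells, stood at 205, 289, 177 and 327 CPM against 1314, 1725, 1366 and 2085 in general capillary cells. Glp1r stood at 187, 133, 94.4 and 140.2 CPM against 1760, 1437, 818 and 1190, and Kit at 131, 169, 142 and 148 against 783, 957, 752 and 936. Glp1r and Kit helped to choose the general capillary cells, so a high level there was set by the choice.

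The first comparison, WT PNX against sham, asks what differed 7 days after PNX. A gene was counted here when the higher library had at least 50 CPM and 20 UMIs, and its ratio is given as log2 of CPM plus a pseudocount of 10 CPM, a scale that understates the change of low genes. Of 3870 genes counted in arterial cells, 135 stood at least 2-fold higher after PNX (3.49%) and 112 at least 2-fold lower (2.89%). Among the 135, 121 had the same sign in general capillary cells and 21 were also 2-fold higher there. Among the 112, the counts were 87 and 19. The same shares over all genes counted were not taken, so these counts are not read as a response shared by both cell types. When clusters 3 and 4 were left out, 90 of the 135 and 81 of the 112 remained 2-fold apart.

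The elastic fibre genes did not move together. Eln stood at 303 CPM in sham (247 to 368) and 1549 in WT PNX (1449 to 1654), a log2 ratio of 2.31, or 2.59 without clusters 3 and 4. A single WT PNX cell held 29.2% of these UMIs, and without it Eln stood at 1126 CPM (1040 to 1217). Fbln5 was higher as well, at 1338 CPM (1246 to 1436) against 619 (537 to 709). Ltbp4 was lower, at 797 CPM (726 to 873) against 2011 (1862 to 2168), as it was in general capillary cells, with log2 ratios of -1.32 and -1.88. Of 7 elastic fibre genes counted, 3 stood at least 1.5-fold higher and 1 at least 1.5-fold lower, beside 12.8% and 10% of all genes counted, and the genes of the list summed to 6829 CPM in sham and 6847 in WT PNX.

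Collagens of the basement membrane, the sheet beneath the endothelium, were higher in WT PNX. Col18a1 stood at 44.6 CPM in sham and 206 in WT PNX, 4.61-fold higher (2.69 to 8.50), and its log2 ratio was 1.98 in all arterial cells, 2.09 without clusters 3 and 4 and 1.71 in general capillary cells. Col4a2 stood at 413 and 1344 CPM, 3.25-fold higher (2.71 to 3.92), and Col15a1 at 178 and 586 CPM, 3.28-fold higher (2.49 to 4.40). Without clusters 3 and 4 the log2 ratio of Col4a2 went from 1.68 to 0.75 and that of Col15a1 from 1.66 to 0.38. Igfbp7, a secreted vascular protein, likewise went from 1.18 to 0.01, so that its difference was found in cluster 3, where it stood at 10454 CPM. Over the list of matrix genes, 8 of 23 counted stood at least 1.5-fold above sham and 2 as far below it, where 12.8% and 10% of all genes did. The median log2 ratio was 0.10 beside 0.06 over all genes.

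Several early response genes were higher and several antigen presentation genes lower. Fosb, an immediate early transcription factor, stood at 77.3 CPM in sham and 581 in WT PNX, 7.51-fold higher (5.04 to 11.7), with a log2 ratio of 2.76 in arterial and 1.33 in general capillary cells. The log2 ratio was 1.44 for Fos, 1.34 for Dusp1 and 1.33 for Egr1, and it was above 1 for each of them without clusters 3 and 4. Such genes also respond to tissue digestion, and its part in the result was not tested. H2-Q7, a nonclassical MHC class I gene, stood at 779 CPM in sham and 190.2 in WT PNX, 4.10-fold lower (3.27 to 5.17), and H2-Q6 at 396 and 55.3 CPM, 7.15-fold lower (4.83 to 10.9). These 2 genes are near-identical copies in a family, so reads could be split between them. H2-T23, another gene of this class, stood at 866 and 249 CPM. Of 18 class I and peptide loading genes, 8 stood at least 1.5-fold below sham and 1 above it, where 10% and 12.8% of all genes counted did. The median log2 ratio was -0.29 in arterial and in general capillary cells alike. Of 4 class II genes, 3 were lower, among them H2-Eb1 at 181 and 27.7 CPM, and the summed level of this list in arterial cells was 1062 CPM in sham and 522 in WT PNX.

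Several genes differed more in arterial cells than in general capillary cells. Esm1, endocan, a gene of sprouting endothelium, stood at 297 CPM in sham and 44.96 in WT PNX, 6.62-fold lower (4.26 to 10.6), with log2 ratios of -2.48 in arterial and -0.06 in general capillary cells. Rflnb, refilin B, which binds filamin, stood at 53.5 and 233 CPM, 4.36-fold higher (2.66 to 7.58), with log2 ratios of 1.94 and 0.38. Cald1, caldesmon, an actin-binding protein, stood at 74.4 and 318 CPM, 4.28-fold higher (2.81 to 6.78), with ratios of 1.96 and 0.68. Cdh13 stood at 592 and 237 CPM, with a ratio of -1.29, but general capillary cells had too little of it (4.41 and 4.28 CPM, under the pseudocount) for a ratio there to be read. The chemokine gene Cx3cl1 was 5.29-fold lower (3.36 to 8.59), at 238 and 44.96 CPM, and was lower in general capillary cells too, with a log2 ratio of -1.25 there. Aplnr, the apelin receptor gene, was 5.89-fold higher (2.85 to 14.1), with a log2 ratio of 2.15, or 1.00 without clusters 3 and 4.

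A few genes went from near nothing to clear levels or back. Ifi204, an interferon-inducible gene, had 1 UMI in sham (2.97 CPM) and 52 in WT PNX (89.9 CPM), a ratio of 30.2 with an interval from 5.19 to 1217, and a log2 ratio of 2.95, or 3.66 without clusters 3 and 4. Ppp2r2c, a phosphatase subunit gene, had 22 UMIs in sham and 0 in WT PNX, which is at least 12.6-fold lower with 3 UMIs in WT PNX taken as the limit that a count of 0 allows. Ifi204 was at 1.51 CPM in Foxo1cKO PNX and at 0 in M3cKO PNX, so WT PNX was the library that stood apart for it, and general capillary cells had 0.464, 66.9, 1.34 and 0.774 CPM in the 4 libraries.

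Among other pathways in this comparison, 1 of 20 BMP and TGF-beta genes stood past 1.5-fold upwards and 6 downwards (1 and 4 without clusters 3 and 4), with a median log2 ratio of -0.20. Over all genes counted, 12.8% and 10% passed that fold. The endoglin gene Eng, a TGF-beta co-receptor, stood at 1133 CPM in sham and 510.1 in WT PNX, and the ligand gene Bmp6 at 654 and 372 CPM. Of 18 Notch pathway genes, 3 were higher, a share near that of all genes, and 0 lower, with the ligand gene Jag2 at 20.8 and 67.4 CPM. Of 13 coagulation and fibrinolysis genes, 5 were higher, the annexin gene Anxa2 and S100a10 among them with log2 ratios of 1.06 and 1.04, and 1 was lower. Without clusters 3 and 4 it was 2 higher and 1 lower, and S100a10 went to 0.59. Of 19 flow-responsive genes, 5 were higher and 0 lower, or 3 and 0 without those clusters. Klf2, the main flow-induced factor, stood at 2713 and 2030.0 CPM. Of the 25 arterial genes outside the rule that were counted, 5 were higher and 4 lower, with a median of -0.10, and 8 and 4 without clusters 3 and 4. Over all 3870 genes counted, 494 were at least 1.5-fold higher and 434 lower without those clusters.

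The second comparison, M3cKO PNX against WT PNX, rests on 25 cells against 149. Of 2617 genes counted in arterial cells, 82 were at least 2-fold higher in M3cKO PNX (3.13%) and 446 at least 2-fold lower (17%). The minimum for a gene to be counted is uneven here: 20 UMIs are 236 CPM in M3cKO PNX and 34.6 in WT PNX, so that few genes can count as higher. Among 676 genes with a mean of at least 250 CPM over both libraries, a filter chosen after seeing the data that treats the libraries alike, 44 were 2-fold higher (6.51%) and 29 lower (4.29%). At 1.5-fold, 6.5% of the 2617 genes were higher and 35.3% lower, and 15.5% of the 676 were higher and 11.2% lower. The median log2 ratio was -0.36 over the 2617 genes and 0.03 over the 676, so that ratios are not read against a shifted centre among the latter. Without the deepest cell of each library, 51 genes were 2-fold higher in place of 82. Lists below are given over the 676 genes.

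Genes higher in M3cKO PNX included several that were also higher in general capillary cells. Timp3, an inhibitor of matrix metalloproteinases, stood at 877 CPM in WT PNX and 4002 in M3cKO PNX, 4.56-fold higher (3.97 to 5.25). It was seen in 24 of 25 cells, and without the highest cell it stood at 3503 CPM. Its log2 ratio was 2.18 in arterial and 3.60 in general capillary cells. Plat, the tissue plasminogen activator gene, stood at 633 and 2857 CPM, and at 2509 without the highest M3cKO PNX cell, with log2 ratios of 2.16 and 2.35. Nos3, which makes nitric oxide, was 2.37-fold higher (1.61 to 3.43), at 199 and 472 CPM, with ratios of 1.21 and 1.28; at 5% mitochondrial UMIs, where 2 M3cKO PNX cells were left, its arterial ratio was -4.62. The heat shock gene Hspa1a was 5.39-fold higher (3.22 to 8.93), at 65.7 and 354 CPM, and Hspa8 2.02-fold higher (1.75 to 2.33), at 1473 and 2975. Both were higher in general capillary cells, with log2 ratios of 2.57 and 1.08.

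Immediate early genes were lower in the arterial cells of M3cKO PNX. Fosb had 3 UMIs, or 35.4 CPM, against 581 CPM in WT PNX, 16.4-fold lower (5.57 to 80.0). Fos stood at 543 CPM against 2018, 3.72-fold lower (2.77 to 5.10), and Egr1 at 142 against 807, 5.70-fold lower (3.23 to 11.1). In general capillary cells the log2 ratios were -1.05, -0.16 and -0.27. The arterial cells of sham had Fosb at 77.3 CPM, Fos at 738 and Egr1 at 315, under WT PNX and above M3cKO PNX for each. A part of tissue digestion in these differences was not tested. Over 18 heat shock and immediate early genes, 3 stood at least 1.5-fold above WT PNX and 11 below it, where 15.5% and 11.2% of all genes did. The median log2 ratio was -0.70 in arterial and 0.06 in general capillary cells. The 3 that were higher, Hspa1b, Hspa8 and Hsp90aa1, are heat shock genes, and the 11 that were lower, such as Zfp36 at -1.48 and Atf3 at -1.11, are immediate early genes.

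With all cells counted, the wall genes Ltbp4, Mgp, Eln and Cdh13 stood highest in M3cKO PNX, but partly through single cells. Sham stood at 2011, 3465, 303 and 592 CPM for these genes, so it was close for Ltbp4 and Cdh13. Ltbp4 stood at 2113 CPM (1815 to 2446) against 797 in WT PNX, and at 1587 (1319 to 1894) without its highest cell. Mgp stood at 5429.9 CPM against 2722, and at 3987 (3555 to 4457) without its highest cell. Eln stood at 2621 CPM against 1549, and at 1006 (796 to 1256) without its highest cell, which held 64.9% of its UMIs; WT PNX without its highest cell stood at 1126, so the direction of Eln rests on 1 cell. Cdh13 stood at 685 CPM against 237, and at 413 (282 to 583) without its highest cell. Without their highest cell, Ltbp4 and Cdh13 in M3cKO PNX thus lay under the sham levels over all sham cells. Of 4 elastic fibre genes counted, Eln, Ltbp4 and Mgp were at least 1.5-fold higher and 0 lower, beside 15.5% and 11.2% of all genes. Without clusters 3 and 4 only Ltbp4 was, with a log2 ratio of 1.05, while Mgp went from 0.99 to 0.50 and Eln from 0.75 to 0.44. By the uneven minimum 7 elastic fibre genes were counted, 3 higher and 2 lower, beside 6.5% and 35.3% of all genes. The 2 lower were Ltbp1, at 23.6 against 89.9 CPM, and Fbn1, at 70.8 against 168. Both lay under the 236 CPM that 20 UMIs make in M3cKO PNX. Ltbp4 was also higher in general capillary cells, with a log2 ratio of 1.45, while Mgp was lower there, at -1.16.

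Cxcl12 was 2.01-fold lower in M3cKO PNX than in WT PNX (1.76 to 2.30), with a log2 ratio of -1.002, or -1.38 without clusters 3 and 4. Igfbp7 was 3.35-fold lower (2.72 to 4.18) at 1086 against 3640 CPM, a log2 ratio of -1.74. It reversed to 0.51 without clusters 3 and 4, which hold 1 of the 25 M3cKO PNX cells and 32 of the 149 WT PNX cells. Aplnr and Fabp5 had 0 UMIs against 81 and 107, at least 3.96-fold and at least 5.22-fold lower with 3 UMIs as the limit of a count of 0. Both were high in cluster 3, and without clusters 3 and 4 WT PNX had 51.8 CPM of each, which lowers both bounds to at least 1.45-fold. Those 2 genes were also lower in general capillary cells, with log2 ratios of -1.55 and -1.76. The VEGF receptor gene Kdr stood at 236 CPM against 674, with a log2 ratio of -1.48 in arterial cells, -0.81 without clusters 3 and 4 and -0.66 in general capillary cells. Of 16 arterial genes outside the rule, 4 were at least 1.5-fold higher and 2 lower, where 15.5% and 11.2% of all genes were. Their median log2 ratio was 0.21, while without clusters 3 and 4 it was 2 and 5 genes, with a median of -0.20.

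Rhoj (chromosome 12, 75308322 to 75401456, plus strand), a small GTPase of endothelial cells, stood at 303 CPM in sham (247 to 368), 263 in WT PNX (223 to 308), 460.4 in the M3cKO library (327 to 629) and 265 in the Foxo1cKO library (228 to 308). M3cKO PNX was 1.75-fold above WT PNX (1.20 to 2.504), and without its highest cell it stood at 391 CPM (267 to 551), where its interval overlapped that of WT PNX. General capillary cells had 334, 260.3, 347 and 241 CPM.

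The third comparison is Foxo1cKO PNX against WT PNX, which shares the WT PNX cells with the second. Foxo1 (chromosome 3, 52268336 to 52353221, plus strand), a transcription factor that holds endothelial growth in check, checks the label. It stood at 473 CPM in sham (402 to 552), 303 in WT PNX (259 to 351), 496 in the M3cKO library (357 to 670) and 99.5 in the Foxo1cKO library (76.9 to 127). Foxo1cKO PNX was 3.04-fold under WT PNX (2.28 to 4.10), with a log2 ratio of -1.51 in arterial and -1.67 in general capillary cells. Foxo1 was seen in 55.7%, 55.0%, 60.0% and 21.9% of arterial cells, and in 28.0%, 35.3%, 27.9% and 9.58% of general capillary cells. Whether the remaining reads come from the deleted part of the gene is not known from a count per gene. In Foxo1cKO PNX, Foxo1 stood at 140.4 CPM (89.9 to 209) in the 36 arterial cells with Y-linked UMIs and no Xist, and at 37.8 (17.3 to 71.8) in the 54 with Xist and no Y-linked UMI. In WT PNX the corresponding levels were 309 and 315 CPM. Cells of each sex come from different mice, so a difference between mice and one between sexes cannot be told apart.

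Few genes differed in this comparison. Of 3996 genes counted, 18 were at least 2-fold higher in the arterial cells of Foxo1cKO PNX (0.45%) and 22 at least 2-fold lower (0.551%), and at 1.5-fold 4.18% were higher and 4.6% lower. Among the 18, 13 had the same sign in general capillary cells and 2 were 2-fold higher there, and among the 22 the counts were 17 and 5. Here too the shares over all genes counted were not taken. When clusters 3 and 4 were left out, 13 of the 18 and 19 of the 22 remained 2-fold apart, but the counts over all genes were 52 and 53, so this choice decides them.

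Mgp was the abundant gene among those that were lower. It stood at 1088 CPM in Foxo1cKO PNX (1010 to 1171) and 2722 in WT PNX (2589 to 2859), 2.501-fold lower (2.29 to 2.73), with a log2 ratio of -1.31 in arterial and -0.20 in general capillary cells. Sham stood at 3465 CPM (3269 to 3670), so Foxo1cKO PNX had the lowest of the 4 levels, and its interval overlapped no other. Without the highest cell of each library it stood at 1001 and 2404 CPM, so the gap does not rest on 1 cell. With at most 5% mitochondrial UMIs, which left 12 and 23 arterial cells in WT PNX and Foxo1cKO PNX, its log2 ratio was 0.032. Mgp was seen in 40.1% of the arterial cells of Foxo1cKO PNX (33.0 to 47.5) and 51.0% of those of WT PNX (42.7 to 59.3). The other elastic fibre genes did not follow, since Fbln5 stood at 1321 against 1338 CPM and Ltbp4 at 772 against 797. Of 7 counted, 1 was at least 1.5-fold lower and 0 higher, where 4.6% and 4.18% of all genes were. Eln stood at 1031 against 1549 CPM, a log2 ratio of -0.58. Fosb was 2.66-fold lower (2.18 to 3.25), at 219 and 581 CPM, and Atf3, a stress-induced factor, 2.09-fold lower (1.66 to 2.64). Sham had Fosb at 77.3 CPM, so WT PNX was the highest library for that gene. Ifi204 was 59.6-fold lower (10.2 to 2401) on 1 UMI against 52. Lower genes of smaller count were the Wnt antagonist gene Dkk2, at 16.6 and 50.1 CPM, and the growth factor gene Hbegf, at 19.6 and 53.6.

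Genes higher in Foxo1cKO PNX were mostly of low level. Rflnb stood at 487 CPM against 233, 2.09-fold higher (1.70 to 2.57), with a log2 ratio of 1.03 in arterial and 0.72 in general capillary cells. Gdpd3, a lipid phosphodiesterase gene, stood at 148 and 44.96 CPM, 3.29-fold higher (2.11 to 5.28), with ratios of 1.52 and 1.63. Tmem158 stood at 173 and 72.6 CPM, 2.39-fold higher (1.66 to 3.49), with a ratio of 1.15; general capillary cells had 5.80 and 5.50 CPM, under the pseudocount. Rbpj, the DNA-binding partner of Notch, stood at 57.3 and 22.5 CPM, 2.55-fold higher (1.33 to 5.21). Sox17 stood at 657 CPM (597 to 722) against 368 (320.4 to 421), with log2 ratios of 0.82 in arterial and 0.22 in general capillary cells. Of 19 Notch pathway genes, 2 were at least 1.5-fold higher, Rbpj and Sox17, and 0 lower, where 4.18% and 4.6% of all genes were. Igfbp5 and Igfbp3 had log2 ratios of 1.80 and 1.66, but 1 cell held 57.0% and 31.7% of their UMIs in Foxo1cKO PNX.

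Of 16 FOXO genes and targets counted, 2 were at least 1.5-fold higher and 3 lower, where 4.18% and 4.6% of all genes were, with a median log2 ratio of -0.22 beside -0.01 over all genes counted. The 3 that were lower were Foxo1 itself, Spry1, at 46.7 and 93.4 CPM, and the insulin receptor gene Insr, at 34.7 and 64.0. In general capillary cells the log2 ratios of Spry1 and Insr were -0.15 and 0.16. The 2 that were higher were Trib1, at 63.3 and 36.3 CPM, and Ccn1, at 1146 and 759, with general capillary ratios of 0.07 and 0.64. Of 25 arterial genes outside the rule, 1 was higher and 2 lower, with a median of 0.04, and without clusters 3 and 4 it was 4 and 3. Of 20 BMP and TGF-beta genes 0 passed 1.5-fold in either direction, and 1 in each without those clusters. Over all 3996 genes counted, 271 were at least 1.5-fold higher and 304 lower without those clusters. In M3cKO PNX, over the 676 genes, Foxo1, Txnip and Nos3 were higher and Ccn1 lower among 6 FOXO genes and targets, beside 15.5% and 11.2% of all genes.

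**Figure D4:**
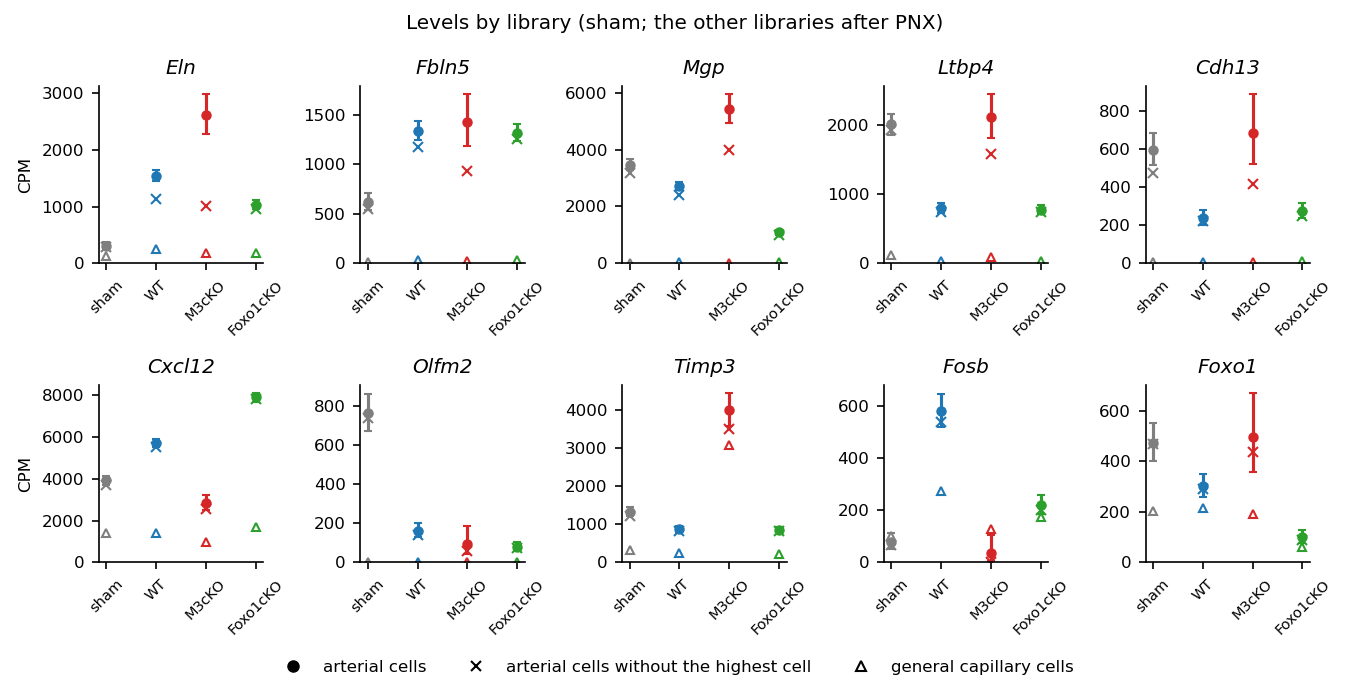
CPM of 10 genes in the arterial cells of each library (filled circles, exact 95% Poisson intervals), the same without the cell that holds most UMIs of the gene (crosses), and in general capillary cells (open triangles). Eln in M3cKO PNX drops from 2621 to 1006 CPM without 1 cell, Mgp is lowest in Foxo1cKO PNX at 1088, and Foxo1 is lowest there at 99.5.

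The comparison of arterial with general capillary cells differed from gene to gene. In WT PNX against sham, Esm1 was lower in arterial cells with a capillary log2 ratio of -0.06, while H2-Eb1, Col18a1 and Ifi204 differed alike in both cell types. In M3cKO PNX, Timp3, Hspa1a and Plat were higher in both, whereas Egr1 and Fos were lower mainly in arterial cells. In Foxo1cKO PNX, Foxo1, Gdpd3 and Ifi204 differed alike in both, and Mgp mainly in arterial cells. With 1 library a group, none of these gaps between cell types could be tested.

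**Figure D5:**
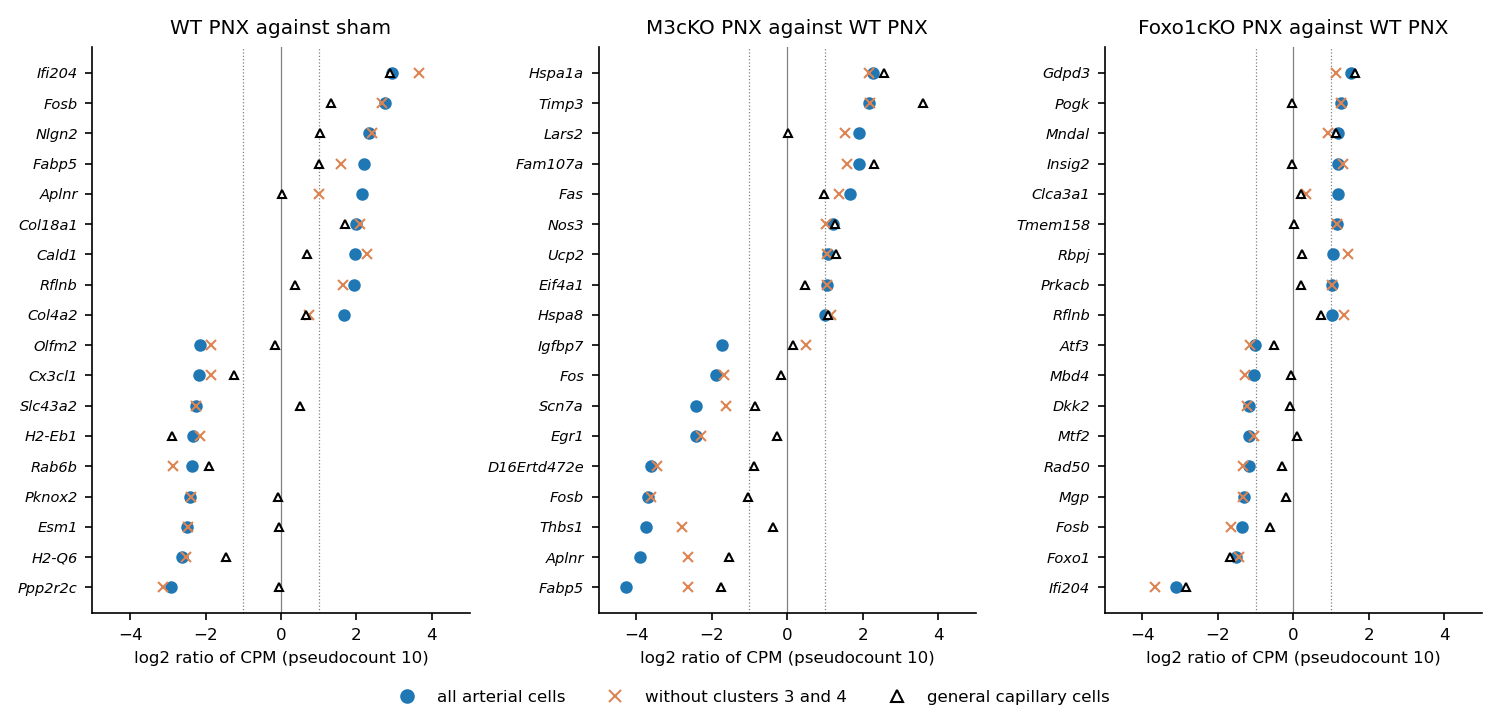
Log2 ratio of CPM (pseudocount of 10 CPM) for 18 of the genes named by rule in each comparison (9 in each direction), in all arterial cells (circles), without clusters 3 and 4 (crosses) and in general capillary cells (triangles); dotted lines mark 2-fold. Igfbp7 in M3cKO PNX crosses from -1.74 to 0.51 without clusters 3 and 4, and Timp3 lies at 2.18 in arterial and 3.60 in general capillary cells.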

How the data were processed

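Raw UMI counts per gene and barcode were used as the authors deposited them, for 4 libraries of 16197681, 30445999, 26848160 and 27320974 UMIs (sham, WT PNX, M3cKO PNX, Foxo1cKO PNX). Per the labels, Cell Ranger 2.1.1 did the mapping, to mm10; the submitters' processing notes name R 3.4.4, and the matrix headers give software version 3.0.0, per the file headers. Cells were gated by the rule in the text, and UMIs were summed per library and scaled to CPM with exact Poisson intervals. Ratios have exact conditional binomial intervals, and shares exact Clopper-Pearson intervals. The counting script was tested on simulated data.

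Clusters came from scanpy 1.11.5 (1000 variable genes, 15 components, 15 neighbours, Leiden resolution 0.3, rule genes left out, no integration). Doublets were kept in the main values; Scrublet's own threshold marked 0, 210, 108 and 237 barcodes, and removing the highest scores by rank (464, 687, 660 and 608 barcodes) is an alternative that takes out 3, 8, 0 and 8 arterial cells. Normalization factors of the TMM alternative came from edgeR 4.0.16. Gene positions are from GENCODE M21 on GRCm38.

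Named genes are, in each comparison and direction, the 10 with the bound of the ratio's interval farthest from 1 among genes at least 2-fold apart with no cell holding over 20% of their UMIs in the higher library, plus the rule genes, Cxcl12, Rhoj, Foxo1 and up to 4 members of a list with the largest ratio. Mitochondrial, ribosomal, haemoglobin, immunoglobulin, T cell receptor, sex-linked marker and numbered model genes were not named by rank. The same held for genes over 5 times as high in the kept cells that failed the endothelial rule. Not every gene that this rule names is described in the text. Beside general capillary cells, 15 genes with at least 100 CPM in each library were taken. Other genes named in the text were chosen after their values were seen. The members, the gene lists and the comparisons were chosen with earlier results of these data known, so no list is independent support for its direction. The alternatives were 5% mitochondrial UMIs, 4 rule-gene UMIs, thinning to 2000 UMIs, doublets left out, 1 UMI of the excluded genes allowed, Xist cells left out, TMM, the mean of cell CPM, a pseudocount of 1 CPM and no minimum. Leaving out clusters 3 and 4, cluster 1 alone, a mean of 250 CPM and leaving out the deepest cell were added after seeing the data.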

Additional observations from a re-analysis of the deposited data

How the results depend on the processing

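No paired analysis was possible because each group was 1 library, and no replicate could be left out. The order of the arterial shares, Foxo1cKO PNX, WT PNX, sham and M3cKO PNX from high to low, held under each of the 9 alternatives that change the cells. With at most 5% mitochondrial UMIs the shares were 1.11%, 1.47%, 0.329% and 2.65% (sham, WT PNX, M3cKO PNX, Foxo1cKO PNX), on 11, 12, 2 and 23 cells. With at least 4 rule-gene UMIs they were 2.12%, 2.78% and 3.78% (sham, WT PNX, Foxo1cKO PNX), and thinned sham stood at 3.52%. Without clusters 3 and 4 the share was 3.01% for WT PNX and 3.83% for Foxo1cKO PNX, and in cluster 1 alone the shares were 1.48%, 2.01%, 0.602% and 2.97%.

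Counts of genes 2-fold higher and lower moved as follows. At 5% mitochondrial UMIs they were 43 and 28 (WT PNX against sham), 2 and 100 (M3cKO PNX against WT PNX), and 41 and 36 (Foxo1cKO PNX against WT PNX). With no minimum level they were 429 and 303, 857 and 1789, and 99 and 84, and with a mean of 250 CPM 19 and 18, 44 and 29, and 2 and 3, by construction of the filter. Thinned, 63 genes were lower in WT PNX against sham and 16 were higher in the M3cKO library against WT PNX, and without the deepest cell 51 were higher in M3cKO PNX. For Foxo1cKO PNX against WT PNX the counts were 48 and 51 with 4 rule-gene UMIs, 63 and 52 thinned, 54 and 61 without Xist cells, 34 and 51 as the mean of cell CPM, 43 and 47 with a pseudocount of 1 CPM, 52 and 53 without clusters 3 and 4, and 77 and 66 in cluster 1 alone. Fewer cells enter the settings that leave cells out; beyond that the cause was not tested.

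Of 63 log2 ratios of named genes, between 45 (thinned) and 63 (pseudocount of 1 CPM) stayed 2-fold apart, and with TMM factors 59 did. At 5% mitochondrial UMIs 11 reversed, on few cells: Pknox2 to 1.99 against sham, Fas to -3.30, Eif4a1 to -0.16, Nos3 to -4.62, Surf4 to -1.99 and Sfrp1 to -1.99 in M3cKO PNX, and Pogk to -0.55, Rbpj to -0.47, Mgp to 0.032, Dkk2 to 2.24 and Hbegf to 0.25 in Foxo1cKO PNX. Thinning turned Scn7a to 0.36 in M3cKO PNX. Igfbp7 in M3cKO PNX turned to 0.51 without clusters 3 and 4 and to 1.20 in cluster 1 alone, where Ucp2 turned to -0.16. TMM factors moved the median log2 ratio of M3cKO PNX against WT PNX from -0.36 to -0.49. At 25 arterial cells, 20 UMIs are 236 CPM in M3cKO PNX, so lower levels there are not resolved.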
